A study of Mus musculus with 9 samples.

Results

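The syndecans (Sdc1 to Sdc4) and the glypicans (Gpc1 to Gpc6) are the mouse genes for the core proteins of the cell surface heparan sulfate proteoglycans. They were picked by symbol, with earlier results of these data known, and form 10 of the 36410 rows of a table of ribosome footprint counts. Footprints are the stretches of mRNA that a ribosome covers and so protects from digestion, and a count reports ribosomes on an mRNA. The cells were immortalized striatal cells of strain C57/BL6, described in the labels as carrying knock-in Htt exon 1. The control line (STHdhQ7/Q7) has 7 glutamines on both alleles, the line called HD-het (STHdhQ7/Q111) has 7 on 1 allele and 111 on the other, and the line called HD-homo (STHdhQ111/Q111) has 111 on both. All cells were held for 10 min in cycloheximide, a drug that arrests ribosomes on the mRNA, and each line gave 3 libraries from separate rounds of culture. Each genotype was 1 line, so genotype and line cannot be told apart. Matched mRNA libraries were not used here, and every value is a footprint abundance rather than a ratio to mRNA.

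Syndecans span the membrane once and carry heparan sulfate chains on an extracellular domain that proteases can shed. Their short cytoplasmic tails end in a motif that binds PDZ domain proteins such as syntenin. Glypicans have a globular extracellular domain and are held to the outer leaflet of the membrane by a glycosylphosphatidylinositol anchor, with their chains attached close to it. Through these chains both families hold growth factors such as fibroblast growth factors, Wnts, Hedgehog and pleiotrophin near their receptors, and in brain they are known for roles in axon growth and in the formation of synapses.

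The chains are attached to serines that are followed by glycine. The densest run of such codon pairs is shown for 6 of the 10 genes because chains are attached at such sequences. Each line gives 10 codons of the longest coding sequence in GENCODE release M21 (GRCm38), 5′ to 3′ on the coding strand, with capitals marking each in-frame serine codon (TCN, AGC or AGT) that is followed by a glycine codon (GGN).
Sdc1: TCTGGGgatgactctgacaacttcTCTGGC
Sdc2: TCAGGCTCAGGAgctgatgaagacatagag
Sdc3: TCGGGGTCAGGCTCTGGCtacttcgagcag
Sdc4: TCGGGTTCTGGAgatctggatgacacggag
Gpc4: AGTGGAgagggaAGTGGAAGCGGAtgtgaa
Gpc6: AGTGGCTCAGGCAGCGGCAGTGGTtgcatg
The Sdc1 run lies at chr12:8789449-8789478 (plus strand, coding exon 2), and those of Sdc2, Sdc3 and Sdc4 cross exon junctions. The glypican runs shown lie at chrX:52053686-52053715 (Gpc4, minus strand, coding exon 9) and chr14:117974895-117974924 (Gpc6, plus strand, coding exon 10). In the syndecans they fall at codons 37 to 46 of 311 (Sdc1), 55 to 64 of 202 (Sdc2), 78 to 87 of 442 (Sdc3) and 62 to 71 of 198 (Sdc4), and in these glypicans near the end, at codons 494 to 503 of 557 in Gpc4 and 503 to 512 of 565 in Gpc6. Of 21592 mouse coding sequences, 13.6% held at least 2 such pairs within 10 codons, 0.792% at least 3 and 0.079% at least 4. Gpc6 held 4, Sdc3 and Gpc4 held 3, and Sdc1, Sdc2 and Sdc4 held 2. Gpc3, not shown, held 1, and 80.4% of coding sequences held at least 1. A match is a run of letters and not evidence of a chain at that place.

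The coding ends of the 4 syndecans are shown because they encode the PDZ-binding tail. Capitals mark the last 15 bases, stop codon included.
Sdc1: cccaccaagcaggagGAGTTCTACGCCTGA
Sdc2: aaggcacccactaagGAGTTTTATGCATAA
Sdc3: cctgacaagcaggagGAGTTCTACGCTTAG
Sdc4: aaagcccccaccaatGAGTTCTACGCATGA
They lie in coding exon 5 of each gene, at chr12:8791778-8791807, chr15:33032511-33032540 and chr4:130822780-130822809 on the plus strand and at chr2:164426086-164426115 on the minus strand. Over the last 15 bases Sdc1 and Sdc4 shared 14, and the other pairs shared 11 or 12. Over all 30 bases, Sdc1 and Sdc3 shared 24 and Sdc2 and Sdc4 shared 23, against 14 to 17 in the other pairs.

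Library totals ran from 22504543 to 41888701 counts. The replicates spread least in control (biological coefficient of variation 8.83%) and most in HD-homo cells (16.0%, against 10.5% in HD-het). Levels are given as CPM, the counts scaled to a library total of 1e6 after TMM correction, as mean ± SD over 3 libraries. Where 3 means stand together, the first is control, the second HD-het and the third HD-homo. Footprints on Htt were at 28.7 ± 1.07, 20.3 ± 0.818 and 6.62 ± 0.971 CPM in the 3 lines (SD, n = 3). The 10 markers of striatal neurons summed to 44.2 to 75.3 CPM, most of it Foxp1 (33.4, 43.1 and 56.9 CPM) and, in part, Ppp1r1b (12.04, 5.18 and 10.5 CPM), with Drd1 and Drd2 at a count of 0 in all lines. Neural precursor markers summed to between 9016 and 9861 CPM in control and HD-het libraries and to between 6018 and 6552 CPM in HD-homo libraries, most of it Vim. The other precursor markers went different ways, with Nes at 399.5, 1086 and 7.01 CPM, Sox2 at 51.1, 33.9 and 2.26 CPM, Pax6 at 17.3, 24.8 and 0.0759 CPM and Dlx2 at 9.25, 2.11 and 19.9 CPM.

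All 8 members tested differed among the lines in edgeR's quasi-likelihood test at an adjusted p under 0.05, as did 78.4% of the 12678 genes tested. In HD-het cells 8 were higher than in control and 0 lower, where 31.0% of all genes were higher and 29.1% lower (60.1% in either direction). In HD-homo cells Sdc2, Sdc4 and Gpc4 were higher than in control and Gpc2 and Gpc6 lower, where 23.3% of all genes were higher and 22.3% lower (45.7% in either direction). HD-homo cells were lower than HD-het cells in 7 members, all but Sdc2, against 32.8% of all genes, and higher in 0, against 34.6% (67.5% in either direction). Of changes of at least 2-fold past the threshold, HD-het cells had 6 higher and 0 lower against control (13.9% and 6.91% of all genes), HD-homo cells had 0 higher and 2 lower against control (8.94% and 8.27%), and HD-homo cells had 0 higher and 5 lower against HD-het (11.1% and 16.2%). The libraries of HD-het and control did not overlap in 8 members (71.2% of all genes), those of HD-homo and control in 5 (55.5%) and those of the HD lines in 7 (69.5%). The median log2 fold change of the 8 members was 1.09 for HD-het and 0.36 for HD-homo against control, where the median of all genes was 0.02 in both. Gpc3 and Gpc5 did not pass the filter on low counts.

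At an unadjusted p under 0.05 the same edgeR fit gave 8 members higher and 0 lower in HD-het cells against control (33.0% and 31.3% of all genes), 4 and 2 for HD-homo against control (27.1% and 26.0%), and 0 and 7 in HD-homo against HD-het cells (36.2% and 34.2%). DESeq2 at an adjusted p under 0.05, which also tested Gpc3, gave 8 and 0 (28.3% and 25.1% of its genes), 3 and 2 (21.3% and 20.2%), and 0 and 7 (30.6% and 30.4%). HD-het stood above both other lines in 7 members, at an adjusted p under 0.05 in both edgeR comparisons, against 21.8% of all genes. The summed level of fibroblast and mural cell markers was also higher in HD-het libraries, with 7 of 9 markers at 1 CPM or more in each line and a sum of 25481 to 27767 CPM in HD-het, 6421 to 9181 CPM in control and 5626 to 7143 CPM in HD-homo libraries. Col1a1 (3343, 16518 and 4567 CPM) and Acta2 (4099, 8386 and 267 CPM) made up most of it. Of the 7 tested markers 6 were higher and 0 lower in HD-het cells against control (31.0% and 29.1% of all genes). In HD-homo against HD-het cells 3 were higher and 4 lower (34.6% and 32.8% of all genes). Col1a2 (24.0, 88.9 and 1027 CPM), Dcn (7.30, 11.5 and 40.6 CPM) and Twist1 (12.3, 13.5 and 23.0 CPM) were the 3 that were highest in HD-homo cells. Lum was at a count of 0 in control and Thy1 in HD-het cells. The microglial markers, mostly Tmem119 (5.43, 21.2 and 4.39 CPM), summed to 18.6 to 26.8 CPM in HD-het, 4.93 to 6.64 CPM in control and 4.63 to 6.16 CPM in HD-homo libraries, with 1 of 6 at 1 CPM or more in HD-het cells, Cx3cr1 at a count of 0 in all lines, and Aif1 and Itgam at or under 3 counts in every library. Csf1r ran differently, with 0.339, 0.380 and 1.06 CPM. The part of these cells or states in the results was not tested, and in such bulk lysates fewer cells of a type and less RNA per cell cannot be told apart.

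**Figure D1:**
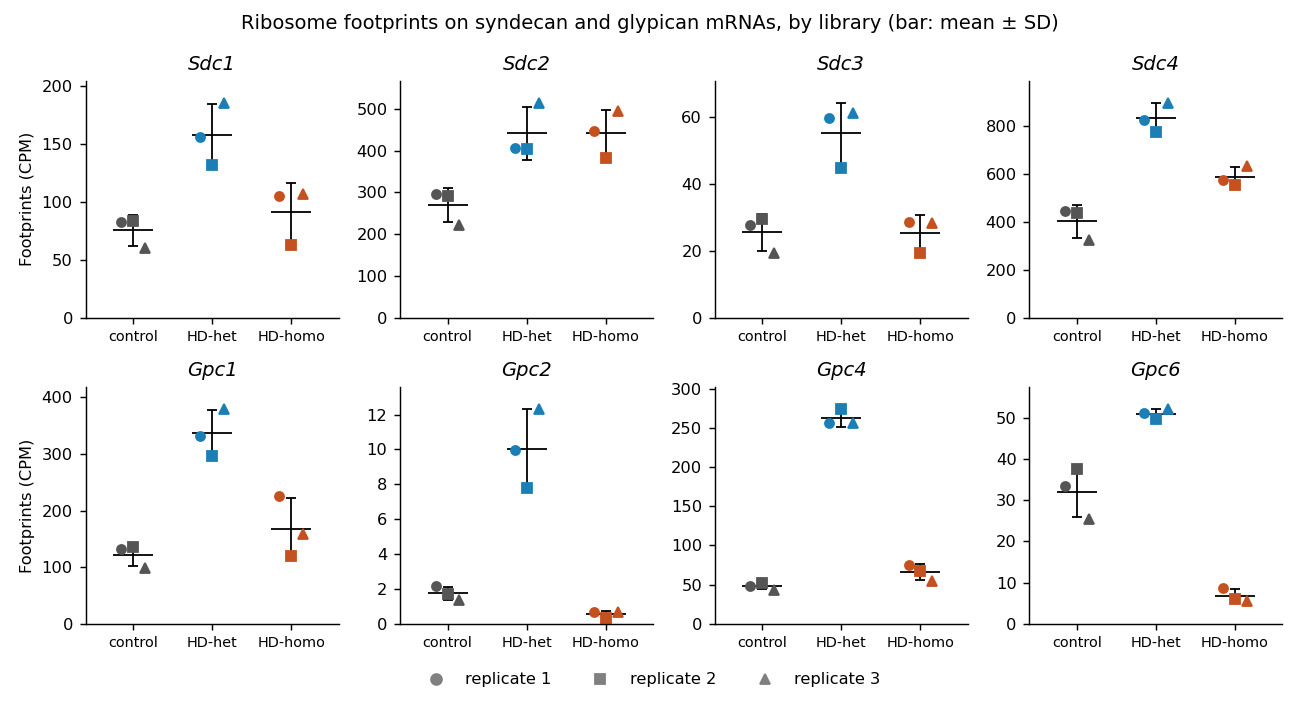
Footprints (CPM, linear axes from 0) on each of the 8 tested members in the 3 control, 3 HD-het and 3 HD-homo libraries, with bars for the mean ± SD (n = 3) and the marker shape for the replicate number. The HD-het libraries lie above all control libraries in every panel, and Gpc2 and Gpc6 are lowest in HD-homo cells.

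Sdc4, which gathers at focal adhesions and activates protein kinase C alpha, had the most footprints of the 10 genes. It lay at chromosome 2, 164424247 to 164443188. The control libraries held 445, 437 and 323 CPM, the HD-het libraries 825, 775 and 898 CPM and the HD-homo libraries 574, 553 and 633 CPM. The lines formed 3 ranges without overlap, with control lowest and HD-het highest. The rise over control was 2.07-fold in HD-het (log2 1.05, SE 0.12, adjusted p = 2.66e-05, edgeR) and 1.46-fold in HD-homo cells (log2 0.55, SE 0.12, adjusted p = 0.00341, edgeR), and HD-homo cells were 1.42-fold lower than HD-het cells (adjusted p = 0.00311, edgeR).

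Sdc2, the syndecan of mesenchymal cells that is also found on dendritic spines, was the member whose means differed least between the HD lines. It is at chromosome 15, 32920723 to 33034721. Control libraries were at 295, 291 and 222 CPM, HD-het libraries at 407, 404 and 515 CPM and HD-homo libraries at 448, 381 and 494 CPM. Every HD library exceeded every control library, and the HD lines overlapped. The rise was 1.64-fold in both HD-het (log2 0.71, SE 0.14, adjusted p = 0.00112, edgeR) and HD-homo cells (log2 0.71, SE 0.14, adjusted p = 0.00167, edgeR). The difference between the HD lines had a 95% interval of -0.31 to 0.31 on the log2 scale.

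Sdc1, known from epithelia and plasma cells, rose in HD-het cells. It is at chromosome 12, 8771396 to 8793716. Control libraries were at 82.9, 83.6 and 59.7 CPM, HD-het libraries at 156, 132 and 186 CPM, and HD-homo libraries at 105, 62.5 and 106 CPM. Each HD-het library lay above all 6 others, whereas HD-homo replicate 2 lay within the control range. HD-het cells were 2.09-fold above control (log2 1.06, SE 0.21, adjusted p = 9.81e-04, edgeR) and HD-homo cells 1.73-fold below HD-het (adjusted p = 0.00512, edgeR). Against control, HD-homo cells had a log2 fold change of 0.27 (95% interval -0.18 to 0.72, adjusted p = 0.300, edgeR). Without HD-homo replicate 2 it was 0.49 (adjusted p = 0.0314, edgeR), but 17 of 18 alternatives left it not called. Without control replicate 3 it was 0.13 (adjusted p = 0.660, edgeR).

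Sdc3, the syndecan of neural tissue and a receptor for pleiotrophin, is at chromosome 4, 130792537 to 130826318, and had the fewest footprints of its family. Control libraries were at 27.7, 29.5 and 19.3 CPM, HD-het libraries at 59.6, 44.6 and 61.2 CPM, and HD-homo libraries at 28.4, 19.4 and 28.4 CPM. HD-het stood apart, and the HD-homo libraries lay within the range of control. The rise in HD-het cells was 2.15-fold (log2 1.11, SE 0.19, adjusted p = 4.64e-04, edgeR), and HD-homo cells were 2.16-fold below HD-het (adjusted p = 3.36e-04, edgeR). HD-homo against control gave a log2 fold change of -0.01 (95% interval -0.43 to 0.42, adjusted p = 0.981, edgeR). The annotation of Sdc3 shares exons with the predicted genes Gm12970 and Gm26716 on the other strand, which have no row of their own in the table.

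Gpc1, a co-receptor for fibroblast growth factors, led the glypicans. It is at chromosome 1, 92831645 to 92860211. Control libraries were at 131, 136 and 99.3 CPM, HD-het libraries at 332, 296 and 380 CPM and HD-homo libraries at 226, 119 and 158 CPM. HD-homo replicate 2 lay within the control range and the other HD-homo libraries between control and HD-het. HD-het cells were 2.75-fold above control (log2 1.46, SE 0.21, adjusted p = 1.06e-04, edgeR) and HD-homo cells 2.00-fold below HD-het (adjusted p = 0.00106, edgeR). HD-homo cells against control had a log2 fold change of 0.46 (95% interval 0.01 to 0.90), which missed the threshold after adjustment (adjusted p = 0.0851, edgeR). The value depended on single libraries. It passed without HD-homo replicate 2 (0.66, adjusted p = 0.0102, edgeR). It fell to 0.18 without HD-homo replicate 1 (adjusted p = 0.394, edgeR) and to 0.33 without control replicate 3 (adjusted p = 0.250, edgeR). The row of Ankmy1, which shares an exon with Gpc1, held 5 counts over all libraries against 54156 for Gpc1.

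Gpc4, known as an astrocyte-secreted factor that promotes excitatory synapses and as a modulator of Wnt signals, showed the rise with the smallest adjusted p of the members. It is at chromosome X, 52051007 to 52164923. Control libraries were at 48.4, 52.1 and 43.7 CPM, HD-het libraries at 257, 275 and 256 CPM and HD-homo libraries at 75.6, 67.1 and 54.8 CPM. The 3 ranges did not overlap, and HD-het stood far above both. HD-het cells were 5.46-fold above control (log2 2.45, SE 0.12, adjusted p = 5.99e-08, edgeR), HD-homo cells 1.37-fold above control (log2 0.45, SE 0.12, adjusted p = 0.00746, edgeR), and HD-homo cells 3.99-fold below HD-het (adjusted p = 9.10e-08, edgeR).

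Gpc2, a glypican of developing neurons also called cerebroglycan, and Gpc6, whose loss in humans causes the short-limb disorder omodysplasia, stood above control in HD-het and below it in HD-homo cells, a pattern that 6.79% of all genes had. Of the 7 tested precursor markers, Nes and Pax6 had it too. Dlx1 and Dlx2 had the reverse, Sox2 was lower than control in both HD lines and Fabp7 higher in both. Vim was lower than control in HD-homo cells only. The part of these markers in the result was not tested. Gpc2 (chromosome 5, 138273657 to 138280026) had 2.14, 1.71 and 1.35 CPM in control, 9.98, 7.78 and 12.3 CPM in HD-het and 0.667, 0.344 and 0.665 CPM in HD-homo libraries. These are counts of 56, 72 and 36, then 263, 283 and 261, then 24, 9 and 15, so its level rests on few footprints but its lines did not overlap. It was 5.75-fold above control in HD-het (log2 2.52, SE 0.23, adjusted p = 5.20e-06, edgeR) and 3.06-fold below it in HD-homo cells (log2 -1.61, SE 0.31, adjusted p = 0.00128, edgeR). Gm43720, a predicted gene on the same strand that shares an exon with Gpc2, has no row in the table.

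Gpc6 (chromosome 14, 116924920 to 117979529) had 33.4, 37.4 and 25.4 CPM in control, 51.1, 49.7 and 52.1 CPM in HD-het and 8.73, 5.93 and 5.54 CPM in HD-homo libraries. Its 3 ranges were separate, and the HD-het libraries had an SD of 1.21 CPM. HD-het cells were 1.59-fold above control (log2 0.67, SE 0.16, adjusted p = 0.00460, edgeR) and HD-homo cells 4.71-fold below it (log2 -2.24, SE 0.18, adjusted p = 1.78e-06, edgeR). Between the HD lines the differences were the widest of the members, with HD-homo cells 17.6-fold lower for Gpc2 (adjusted p = 2.30e-07, edgeR) and 7.48-fold lower for Gpc6 (adjusted p = 1.59e-07, edgeR).

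Gpc3, an inhibitor of Hedgehog signalling (chromosome X, 52272426 to 52613974), was near the limit of detection. It had 2 counts in each control library, 0, 4 and 0 counts in HD-het and 6, 3 and 4 counts in HD-homo libraries. Gpc5 (chromosome 14, 115092201 to 116525192) had 1 count in HD-homo replicate 1 and 0 in the other 8 libraries. A count of 0 allows up to 3 counts, or 0.0714 to 0.142 CPM depending on the library, for counting error only. Gpc3 is the neighbour of the readily detected Gpc4 on chromosome X, and Gpc5 that of Gpc6 on chromosome 14.

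**Figure D2:**
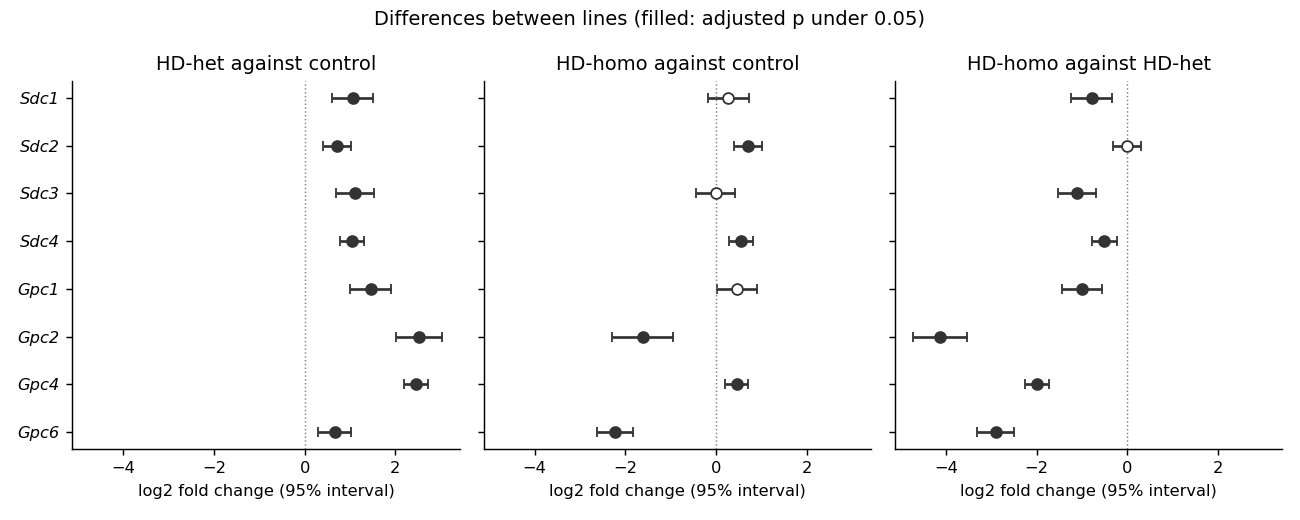
Log2 fold change of each tested member in the 3 comparisons of lines, with 95% intervals (edgeR, 3 libraries per line); filled points had an adjusted p under 0.05. All 8 members lie above 0 in HD-het against control, while in HD-homo against control they run from -2.24 (Gpc6) to 0.71 (Sdc2).

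Within a line, the members tended to be lowest or highest in the same library. Control replicate 3 was the lowest of its line in 8 of 8 members, as in 37.4% of all genes. HD-het replicate 3 was the highest of its line in 7 members (42.3% of all genes) and HD-het replicate 2 the lowest in 7 (35.1%), while HD-homo replicate 2 was the lowest in 6 (37.9%). Leaving out any of the 9 libraries in turn left 8 members above control in HD-het cells and 7 below HD-het in HD-homo cells. Without HD-homo replicate 2, the members above control in HD-homo cells went from 3 to 5.

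To compare levels between genes, CPM was divided by the length of the coding sequence in kilobases. In control cells Sdc4 led with 672 ± 114 CPM per coding kilobase, followed by Sdc2 with 442 ± 68.1, both without overlap with the next gene (SD, n = 3). Sdc1 (80.5 ± 14.6) and Gpc1 (72.9 ± 11.9) overlapped, as did Sdc3 (19.2 ± 4.12) and Gpc6 (18.9 ± 3.61), with Gpc4 between these pairs at 28.7 ± 2.51 and Gpc2 last at 0.997 ± 0.226 CPM per coding kilobase. Among 12278 tested genes with a coding length, the control level of Sdc4 stood at percentile 97.6, that of Sdc2 at 96.2 and that of Gpc2 at 15.9.

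In HD-het cells Sdc4 (1394 ± 104 CPM per coding kilobase) and Sdc2 (725 ± 104) again came first, and Gpc1 (201 ± 25.0), Sdc1 (169 ± 28.9) and Gpc4 (157 ± 6.34) overlapped in sequence (SD, n = 3). Gpc4 stood at percentiles 68.1, 91.1 and 72.8 in the 3 lines. In HD-homo cells Sdc4 was at 983 ± 69.2, Sdc2 at 724 ± 93.3, and Gpc1 (100.2 ± 32.2) and Sdc1 (97.5 ± 26.6) overlapped, while Gpc6 (3.97 ± 1.03) fell clear of Sdc3 (19.1 ± 3.93 CPM per coding kilobase). The percentiles of Gpc6 were 60.3, 68.5 and 31.5.

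Summed over each family, the syndecans had 623 to 851, 1355 to 1660 and 1016 to 1262 CPM in the libraries of the 3 lines, which did not overlap. The glypicans had 170 to 227, 629 to 700 and 193 to 311 CPM, and here control and HD-homo overlapped. Within the syndecans, per coding kilobase, the mean shares of the leading genes differed by less than 10 percentage points among the lines, with Sdc4 at 55.3% ± 0.291, 59.96% ± 1.73 and 54.0% ± 2.33 and Sdc2 at 36.5% ± 0.471, 31.1% ± 1.53 and 39.6% ± 1.16 (SD, n = 3). Within the glypicans, Gpc4 made up 23.8% ± 1.75, 39.99% ± 3.59 and 28.04% ± 5.87, and Gpc6 made up 15.5% ± 0.775, 7.64% ± 0.254 and 2.76% ± 0.267 (SD, n = 3). Gpc6 thus held a smaller share in HD-het cells than in control although its own level was higher there. Gpc1 held 59.9% ± 1.26, 50.9% ± 3.57 and 68.9% ± 6.04 (SD, n = 3). No test was made of these shares.

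**Figure D3:**
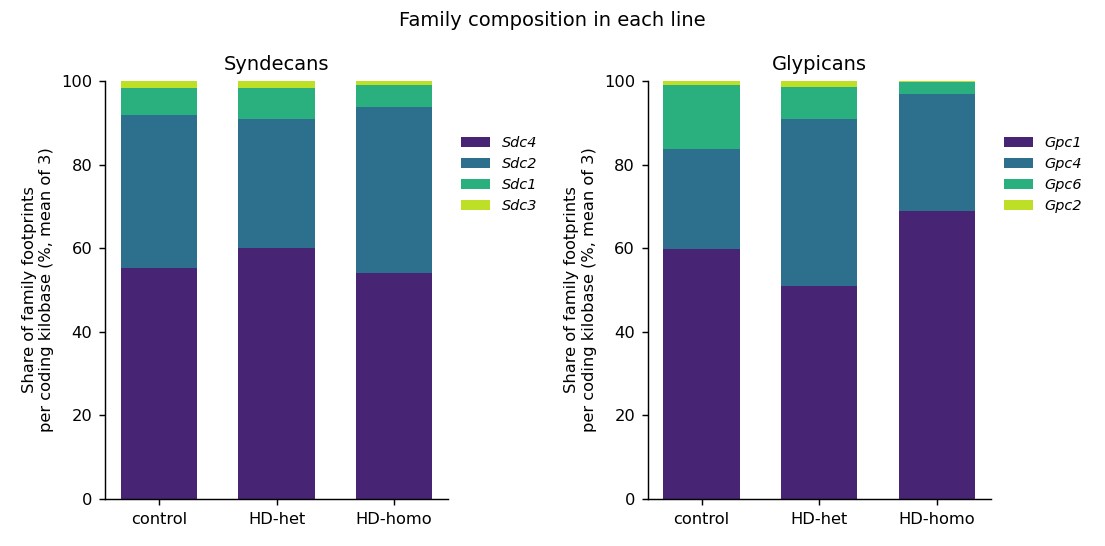
Share of each gene in the footprints of its family per coding kilobase (stacked bars, %, mean of 3 libraries), 1 bar per line; Gpc3 and Gpc5, at under 0.1%, are not drawn. Gpc6 shrinks from 15.5% in control to 2.76% in HD-homo cells, while Sdc4 stays between 54.0% and 59.96%.

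The enzymes that build and modify heparan sulfate, and the partners of these proteins, were compared in the same edgeR fit. Of 10 tested genes of chain synthesis (11 listed), 6 rose and 0 fell in HD-het cells, and 0 rose and 1 fell in HD-homo cells, with median log2 fold changes of 0.68 and -0.01 against control. For this and the lists that follow, 31.0% of all genes were higher and 29.1% lower in HD-het cells, and 23.3% higher and 22.3% lower in HD-homo cells, so the 1 of 10 called in HD-homo cells lies under the 45.7% of all genes called there. Ext2, a subunit of the polymerase that extends the chain, lay at 57.8 ± 12.4, 132 ± 10.7 and 56.9 ± 7.64 CPM in the 3 lines (SD, n = 3; HD-het against control log2 1.19, SE 0.15). B3galt6, which adds a galactose of the linker between chain and serine, lay at 6.89 ± 0.594, 15.5 ± 3.99 and 7.63 ± 1.63 CPM (SD, n = 3; HD-het against control log2 1.16, SE 0.20).

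Of 12 tested genes of chain modification (18 listed), 7 rose and 0 fell in HD-het cells, whereas 1 rose and 6 fell in HD-homo cells against control. Among those that fell, Ndst3, Hs3st3a1 and Hs3st3b1 had few footprints even in control (0.673, 0.354 and 0.435 CPM). In HD-homo cells these genes were at 0.139, 0 and 0.0571 CPM, near or under the level of 3 counts. Against HD-het, HD-homo cells were lower in 11 of the 12 and higher in 0, where 32.8% of all genes were lower and 34.6% higher. Hs6st2, a 6-O-sulfotransferase, lay at 47.7 ± 6.92, 171 ± 12.5 and 27.9 ± 2.33 CPM in the 3 lines (SD, n = 3), with log2 fold changes against control of 1.84 (HD-het) and -0.77 (HD-homo). Sulf1, an extracellular enzyme that removes 6-O-sulfates, had 1 to 7 counts in a control library and 709 to 952 counts in an HD-het library, where its mean was 29.5 ± 3.72 CPM, and lay at 2.54 ± 0.718 CPM in HD-homo cells (SD, n = 3). Hs2st1, the 2-O-sulfotransferase, lay at 51.1 ± 9.43, 46.9 ± 4.58 and 25.3 ± 3.65 CPM (SD, n = 3; HD-homo against control log2 -1.01, SE 0.15).

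Among 9 tested genes of shedding, processing and degradation (10 listed), 6 rose and 2 fell in HD-het cells, and 2 rose and 3 fell in HD-homo cells against control. Mmp14, a membrane metalloprotease that can cleave syndecans, lay at 194 ± 46.8, 610 ± 24.96 and 99.0 ± 23.7 CPM in the 3 lines (SD, n = 3). The sheddase Adam10 rose in HD-het cells (log2 1.14, SE 0.19), with means of 106, 235 and 91.8 CPM. Pla2g6, a phospholipase A2, fell in HD-het cells (log2 -1.17, SE 0.14), with means of 10.7, 4.77 and 10.5 CPM. It was counted in this list without evidence here that it acts on these proteins. Furin, a convertase that cuts glypican precursors, was higher in HD-het (log2 0.48, SE 0.12) and lower in HD-homo cells (log2 -0.97, SE 0.12). Notum, an esterase that acts on Wnts and was first described as releasing glypicans, lay at 7.71 ± 0.460, 2.17 ± 0.450 and 28.4 ± 7.88 CPM (SD, n = 3). It was lower than control in HD-het cells (log2 -1.81, SE 0.22), where all 8 tested members were higher. In HD-homo cells it was higher than control (log2 1.88, SE 0.19), as were 3 of the 8 members, with 2 lower.

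The 11 cytoplasmic partners of syndecans, all tested, were split, with 3 higher and 2 lower in HD-het and 3 higher and 4 lower in HD-homo cells, and medians of -0.01 and -0.16. That is 5 and 7 of 11 called, where 60.1% and 45.7% of all genes were. Actn1, an actin crosslinker that binds syndecan-4, rose in HD-het cells (log2 0.81, SE 0.10) and fell in HD-homo cells (log2 -0.70, SE 0.10). Prkca, the kinase that syndecan-4 activates, fell in HD-het cells (log2 -0.58, SE 0.10) and rose in HD-homo cells (log2 0.34, SE 0.10). Sdcbp, which encodes syntenin, lay at 411, 357 and 540.5 CPM and rose in HD-homo cells (log2 0.39, SE 0.09). Cask, another PDZ protein, was higher in HD-het (log2 0.24, SE 0.08) and lower in HD-homo cells (log2 -0.42, SE 0.08). Tiam1, a Rac exchange factor, lay at 12.2, 12.1 and 5.00 CPM, a log2 fold change of -1.28 (SE 0.19) for HD-homo against control.

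Of 7 tested genes for other heparan sulfate proteoglycans (10 listed), 5 rose and 1 fell in HD-het cells, and 1 rose and 3 fell in HD-homo cells. Hspg2, the basement membrane protein perlecan, lay at 299 ± 73.3, 1246 ± 349 and 369.9 ± 119 CPM (SD, n = 3; HD-het against control log2 2.06, SE 0.26). Tgfbr3, the co-receptor betaglycan, was the one that rose in both, with 2.76 ± 0.836, 11.8 ± 1.35 and 70.4 ± 20.99 CPM (SD, n = 3). Col18a1, a basement membrane collagen, was lower in HD-het (log2 -1.43, SE 0.17) and HD-homo cells (log2 -2.80, SE 0.18), and agrin (Agrn) was higher in HD-het (log2 1.72, SE 0.19) and lower in HD-homo cells (log2 -1.98, SE 0.20).

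Of 17 tested ligands and partner receptors (21 listed), 16 rose and 1 fell in HD-het cells, and 4 rose and 4 fell in HD-homo cells against control. Ptn, which encodes pleiotrophin, the ligand of syndecan-3, was the one that fell in HD-het cells. It lay at 90.5 ± 22.6, 42.4 ± 7.15 and 359 ± 44.0 CPM (SD, n = 3). Itgb3, an integrin subunit, rose in HD-het cells and lay at 17.2 ± 5.11, 118 ± 2.37 and 14.7 ± 5.90 CPM, and the receptor phosphatase Ptprd, which also rose there, at 1.11 ± 0.123, 32.1 ± 3.35 and 1.09 ± 0.142 CPM (SD, n = 3). Vegfa rose in HD-het (log2 1.09, SE 0.15) and HD-homo cells (log2 1.32, SE 0.15). Slit2, an axon guidance ligand that binds heparan sulfate, was higher in HD-het (log2 0.99, SE 0.28) and lower in HD-homo cells (log2 -1.99, SE 0.31), as was the receptor Fgfr1 (log2 0.62, SE 0.13, and log2 -1.08, SE 0.13). The adjusted p of each fold change given for these pathway genes was at most 0.0258 in edgeR's test.

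**Figure D4:**
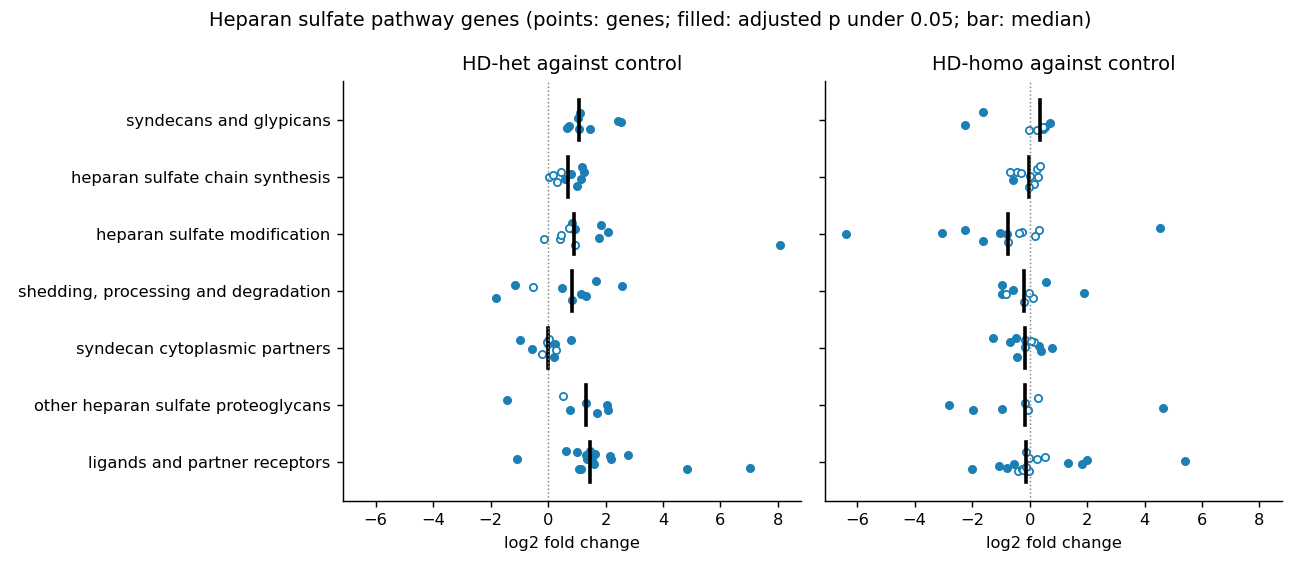
Log2 fold change against control of the syndecans and glypicans and of the tested genes in 6 pathway lists, in HD-het (left) and HD-homo cells (right); points are genes, filled where the adjusted p was under 0.05 (edgeR), and bars are medians. The medians lie above 0 in HD-het cells for all lists but the cytoplasmic partners (-0.01), and from -0.77 to -0.01 for the 6 lists in HD-homo cells; the leftmost point on the right is a gene with a count of 0 in HD-homo cells, drawn at its fitted value.

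The genes whose pattern over the 9 libraries came closest to a member were found by Pearson's r of log2 CPM among 8319 genes. The libraries fall into 3 lines, so these values describe line differences and carry no test. Gpc6 was matched most closely by Itga3, an integrin subunit (r = 0.999), and Flt1, a receptor for vascular endothelial growth factor (r = 0.997). Itga3 stood at 207, 376 and 31.8 CPM in the 3 lines. Gpc2 was closest to Iqgap1 and Lrp4 (r = 0.996 and 0.995), Gpc4 to Man2b2 and Sptbn1 (0.995 and 0.994), and Gpc1 to Jam2 and Wnt5a (0.993 and 0.990). Among the syndecans, Sdc1 was closest to Nhlrc3 and Timp1 (r = 0.988 and 0.987), Sdc2 to Galnt10 and Plod3 (0.983 and 0.979), Sdc3 to Leprotl1 and Ltbp3 (0.991 and 0.987), and Sdc4 to Npr3 and Rcn3 (0.987 for each).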

How the data were processed

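The authors deposited raw counts of ribosome footprints for each gene symbol and each library, neither normalized nor pooled. Fragments of 26 to 32 nt came from the 80S monosome fraction after RNase digestion and were depleted of ribosomal RNA. The submitters' processing notes name cutadapt, Bowtie 1.0.1 and mm10. How footprints were assigned to genes, with which annotation and whether by strand, is not given in the sources used here, so reads of overlapping antisense genes may not be separable.

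All 9 libraries were fitted with edgeR 4.0.16 (limma 3.58.1, R 4.3.3): TMM factors, filterByExpr by group, a mean per line, and the quasi-likelihood F test, 2-sided, with Benjamini-Hochberg adjustment over 12678 genes at 0.05. SEs were derived from the F statistic, and 95% intervals used its degrees of freedom. Coding sequences came from GENCODE M21 (some stretches are not reported here) and gene positions from RefSeq GRCm38.p6. The fit was tested on simulated data. Library totals of 22504543 to 41888701 counts put 3 counts at 0.0714 to 0.142 CPM. These limits cover counting error only, since amplified reads carried no molecular identifiers. The 95% intervals of fold changes also include the spread between libraries, as estimated in the edgeR fit.

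The members, the pathway and marker lists and the tests were chosen with earlier results of these data known. All members were named, with, per list and comparison with control, up to 2 genes with the largest rise and 2 with the largest fall that passed the threshold, had at least 10 CPM in the higher line and did not overlap, and per member of at least 10 CPM the 2 closest patterns.

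Alternatives were RLE factors, total counts, DESeq2 1.42.0, an unfiltered table, a minimum of 10 counts per library, a fit of the 6 libraries of 2 lines, a replicate block, a threshold of 0.01, a change of at least 2-fold, and each library left out. Offsets for GC content and coding length (loess, span 0.5, with values for 96.8% of tested genes), alone and with the block, were chosen after seeing the data.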

Additional observations from a re-analysis of the deposited data

Results flagged for a closer look

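Gpc2 and Gpc6 differed from control in opposite directions in the HD lines, at an adjusted p under 0.05 in both comparisons with control (edgeR). The test between the HD lines does not involve control, and 7 of the 8 tested members passed it. Gpc2 was above control by a log2 fold change of 2.52 in HD-het and below it by -1.61 in HD-homo cells, and the difference of HD-homo against HD-het cells was -4.13 (SE 0.27, adjusted p = 2.30e-07, edgeR). For Gpc6 these values were 0.67 and -2.24, with a difference of -2.90 (SE 0.18, adjusted p = 1.59e-07, edgeR). The HD-het and HD-homo libraries did not overlap for either gene, as for 69.5% of all genes, so every pair of libraries had that direction. Among all genes tested, 6.79% were higher in HD-het and lower in HD-homo cells than in control. Groups of 3 libraries are too small for a test of single outlying libraries.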

How the results depend on the processing

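The members above control in HD-het cells (8), those below HD-het in HD-homo cells (7) and those differing among the lines (8) stayed within 1.5 times their number under every alternative run. Members above control in HD-homo cells numbered 3, with a range of 3 to 5 when each library was left out (5 without HD-homo replicate 2, which added Sdc1 and Gpc1) and 0 when at least a 2-fold change was required. Members lower there numbered 2, and 1 with at least 10 counts in every library, since Gpc2, with 9 counts in HD-homo replicate 2, was then not tested. Gpc1 in HD-homo cells against control also passed with total counts (log2 0.49, adjusted p = 0.0464, edgeR) and with GC and coding length offsets (0.51, adjusted p = 0.0347, edgeR). The other 15 of 18 alternatives left Gpc1 not called there, and its log2 fold change ran from 0.18 to 0.66 over all 18. Of the values that were not called, Sdc3 in HD-homo against control (-0.01) turned to 0.020 with total counts, 0.026 with GC and coding length offsets, 0.018 with these offsets and the replicate block, and up to 0.16 with a library left out (0.04 and 0.11 without control replicates 1 and 2, 0.16 without HD-homo replicate 2; range -0.17 to 0.16). Sdc2 in HD-homo against HD-het (-0.0021) turned to 0.079 with total counts, 0.012 with no filter, 1.61e-04 and 1.48e-04 without control replicates 2 and 3, 0.12 without HD-het replicate 3 and 0.096 without HD-homo replicate 2 (range -0.088 to 0.12 with a library left out), and lay at -0.22 with GC and coding length offsets and -0.23 with these offsets and the replicate block. The cause was not tested.

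Same-numbered libraries of different lines did not deviate together (correlation of deviations -0.36 to 0.17, over 0.1 in 1 of 9 pairs), and 1 of 9 libraries correlated best with its own number. From 3 libraries per line, such correlations cannot settle whether the replicate number pairs the libraries. With the replicate block, members higher and lower stayed at 8 and 0 for HD-het and 3 and 2 for HD-homo against control, and at 0 and 7 between the HD lines, and calls over all genes went from 7620 to 7463, 5790 to 5506 and 8555 to 8406.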
